A study of Mus musculus with 4 samples.

Results

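The metalloproteinases and their inhibitors were taken as every probe set annotated to a single gene whose symbol begins with Mmp, Adam, Adamts, Adamtsl or Timp followed by a digit. This rule uses names and no measured value, and it gave 124 probe sets of 70 genes out of 45101 probe sets on the array. They were 29 probe sets of 18 Mmp genes, 46 of 28 Adam genes, 28 of 15 Adamts genes, 8 of 5 Adamtsl genes and 13 of 4 Timp genes. The tissue was the mouse diaphragm muscle of the left side, and its RNA was read on 4 one-colour arrays, 2 of the synaptic region, where the nerve meets the fibres, and 2 of the non-synaptic region. All 4 arrays come from the same muscle type with no treatment named, while the sources used here do not give strain, age, sex or whether animals were pooled. Arrays are called array 1 and array 2 of a region after the last number of their titles, and no label ties them to different animals. The p-values therefore rest on array-to-array spread alone, and that spread may be technical. All SEs, intervals and p-values take the 4 arrays as unpaired unless a block is named. Because each array reads a whole piece of tissue, fewer cells of a type and less RNA per cell cannot be told apart.

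Matrix metalloproteinases are zinc-dependent enzymes that cut collagens, laminins and other matrix proteins outside the cell, some secreted and some fixed to the membrane. ADAM proteins sit in the membrane, where many of them release the outer part of other membrane proteins, while ADAMTS proteins are secreted and cut proteoglycans and procollagens. ADAMTS-like proteins resemble the ADAMTS family without its protease domain, and the TIMP proteins are secreted inhibitors that bind the catalytic site of these enzymes. In muscle these proteins are known from the turnover of the basal lamina that lies between nerve terminal and fibre, from repair and from the shedding of growth factors.

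The labels were set beside marker genes, which were chosen with earlier results of these data known and are no independent check. Intensities summed over 7 measured markers of the synaptic region were 64271 and 59875 on the synaptic arrays against 19462 and 21250 on the others. Of the 7, 6 had both synaptic arrays above both others, while Musk overlapped at a log2 difference of 0.28 ± 0.32 (SE). The median difference of the 7 was 2.06, yet 0 of them passed limma at an adjusted p under 0.05. The adjusted test can thus miss differences of this size. All 10 muscle fibre markers were measured, and their median difference was 0.013 on the log2 scale. Among them Myh4, the myosin of the fastest fibres, had both synaptic arrays lower, at 32001 and 40267 against 85890 and 93886, a difference of -1.32 ± 0.18 (SE) that did not pass when adjusted (limma unadjusted p = 0.000564, adjusted p = 0.492). Median intensity over all probe sets lay between 658 and 769 on the 4 arrays, and Gapdh, as a check of RNA integrity, had a 3'/5' ratio of 1.03 on array 1 of the synaptic region and 0.814 to 0.853 elsewhere.

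No member differed between the regions past the test, which 0 of the 7 measured synaptic-region markers passed either. A probe set counted as measured when its mean log2 intensity reached 8.87, and 71 of the 124 probe sets did, representing 39 of the 70 genes. Of these 71 probe sets 0 passed limma at an adjusted p under 0.05, where 0.0113% of all 26480 probe sets tested passed (0.00378% higher in the synaptic region and 0.00755% lower). At an unadjusted limma p under 0.05 there was 1 member probe set (1.41%), against 0.986% of all probe sets, and it was higher in the synaptic region, as 0.653% of all were, while 0 members were lower (0.332% of all). The median log2 difference, synaptic minus non-synaptic, was -0.054 over the 71 probe sets and -0.011 over all probe sets tested. Read from 1 probe set each, the 39 genes had a median of 0.015, with 21 positive and 18 negative differences between -0.72 and 0.81.

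The regions did not overlap, with both arrays of one region above both of the other, for 8 member probe sets on the higher side (11.3%, against 9.89% of all probe sets) and 4 on the lower side (5.63%, against 9.98%), or 16.9% of the members against 19.9% of all in either direction. Of the 71 probe sets 0 were set apart by 2-fold or more, which 0.819% of all probe sets were. The 95% interval of the difference lay wholly inside a 2-fold change either way for 32 of the 71 (45.1%), against 59.9% of all probe sets. For 49 of the 71 (69.0%) the region difference was smaller than the gap between the arrays of either region, as it was for 60.5% of all probe sets. The median gap between arrays of one region was 0.48 for the synaptic and 0.41 for the non-synaptic region among the members, and 0.35 and 0.30 among all probe sets.

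**Figure D1:**
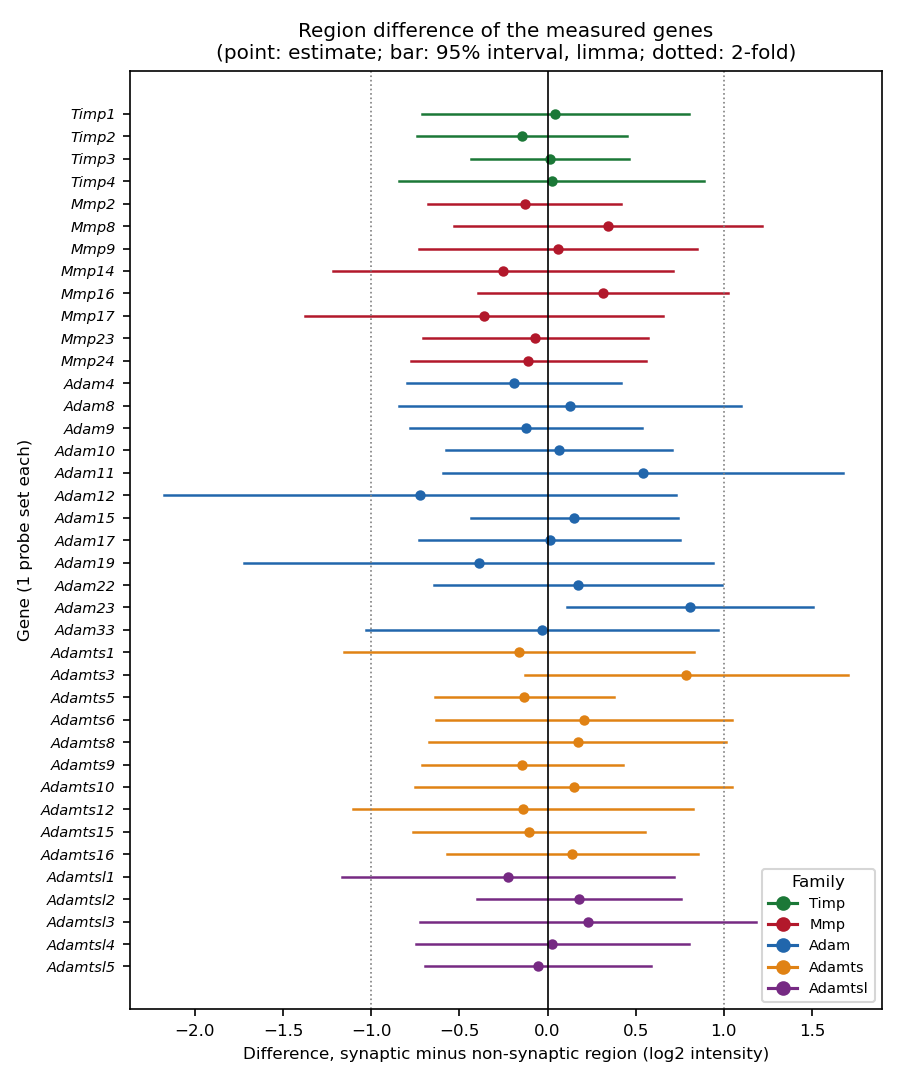
Difference between regions (horizontal axis, log2 intensity, synaptic minus non-synaptic) for the 39 measured genes, 1 probe set each, coloured by family. Points are limma estimates from 2 arrays per region, bars are 95% intervals and dotted lines mark 2-fold. The interval crosses 0 for 38 of the genes and lies above 0 for Adam23.

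**Figure D2:**
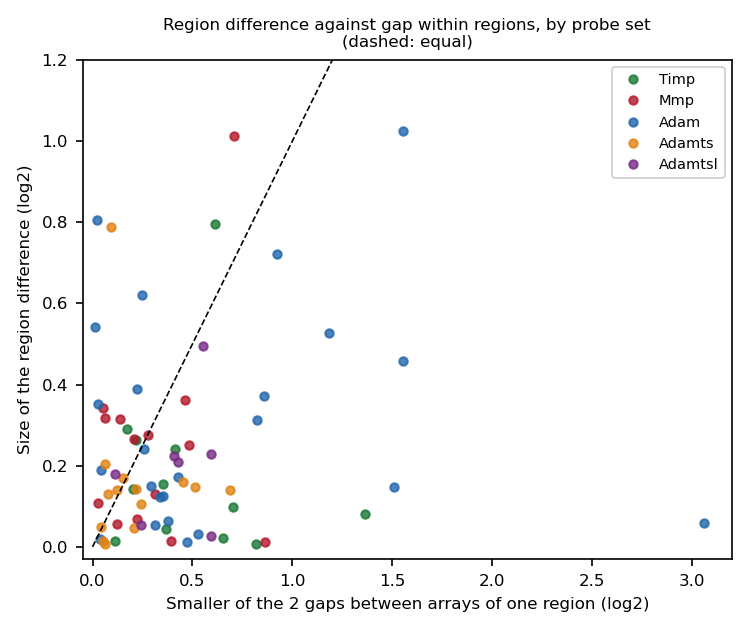
Size of the region difference (vertical axis, log2) against the smaller of the 2 gaps between arrays of one region (horizontal axis, log2) for the 71 measured member probe sets, coloured by family. The 49 points below the dashed line of equality differ less between regions than between arrays of either region.

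All 4 tissue inhibitors were measured, and their region differences were near 0 when each was read from its probe set with the highest mean. Timp1, an inducible inhibitor that is secreted by many cell types, had intensities of 986 and 1274 on the synaptic arrays and of 953 and 1238 on the non-synaptic arrays. The arrays of the regions overlapped, and the difference in log2 intensity was 0.045 ± 0.30 (± SE throughout, from 2 arrays in each region). Timp2, which inhibits Mmp2 and also takes part in its activation by Mmp14, read 34382 and 23456 in the synaptic region against 33611 and 29236 in the non-synaptic region. Its lowest value was on array 2 of the synaptic region, both array 1 readings were higher than both array 2 readings, and the difference was -0.14 ± 0.23. The other measured probe sets of Timp2 gave from -0.80 ± 0.60 to -0.099 ± 0.36.

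Timp3, the inhibitor that is held in the matrix and also acts on Adam17 and on Adamts enzymes, read 25596 and 21245 in the synaptic region and 23983 and 22199 in the non-synaptic region. These synaptic arrays lay on either side of the non-synaptic ones, and the difference was 0.015 ± 0.18, with a 95% interval from -0.43 to 0.46. Timp4, the inhibitor best known from heart and muscle, read 12715 and 7835 in the synaptic region and 12308 and 7841 in the non-synaptic region. Here array 1 of each region was the higher one, and the difference was 0.023 ± 0.34. The second probe set of Timp4 gave -0.26 ± 0.24, and the other probe sets of Timp3 gave from -0.16 ± 0.29 to 0.0060 ± 0.57. The intervals of all 4 inhibitors, each from its own highest probe set, lay inside a 2-fold change either way.

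The gelatinase Mmp2, which cuts denatured collagen and collagen IV of basement membranes, had intensities of 24867 and 19042 in the synaptic region and of 26544 and 21359 in the non-synaptic region. The regions overlapped, with a difference of -0.13 ± 0.22, and the second probe set of Mmp2 gave -0.014. Mmp14, the membrane-bound enzyme that activates Mmp2, read 8884 and 4545 in the synaptic region against 8942 and 6405 in the non-synaptic region. Array 2 of the synaptic region was the lowest, and the difference was -0.25 ± 0.38. The other gelatinase, Mmp9, named here after its values were seen, differed by 0.058 ± 0.31.

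Among the other membrane-bound enzymes, Mmp16 read 949 and 1138 in the synaptic region against 796 and 875 in the non-synaptic region. Both synaptic arrays were the higher ones, yet the difference of 0.32 ± 0.28 had an interval from -0.39 to 1.02, and its second measured probe set gave 0.32 with overlapping regions. Mmp24, known from the nervous system, read 935 and 919 against 1031 and 967. The synaptic arrays were the lower ones, with a difference of -0.11 ± 0.26. A second probe set of Mmp24 gave 1.01 ± 0.92, where array 2 of the non-synaptic region read 122, below the floor, and the other 3 arrays read 1044, 639 and 1029. The lipid-anchored Mmp17 read 611 and 443 against 835 and 536, which overlapped, at -0.36 ± 0.40. Mmp23, an enzyme with an unusual domain plan, read 2293 and 2680 against 2250 and 3004 and differed by -0.069 ± 0.25, and its second probe set gave 0.28.

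Most secreted collagenases and stromelysins were not measurable. In the gene order of assembly GRCm38.p6, 10 Mmp genes lie next to each other without another protein-coding gene between them: Mmp13, Mmp12, Mmp1b, Mmp3, Mmp1a, Mmp10, Mmp8, Mmp27, Mmp20 and Mmp7. The array named 9 of them, and 8 of these 9 fell below the filter. Mmp8, the collagenase of neutrophils, was the exception, with 572 and 777 in the synaptic region and 536 and 517 in the non-synaptic region. Both synaptic arrays were the higher ones, at a difference of 0.34 ± 0.34 that did not pass. Of 9 neutrophil markers 4 were measured, 0 of them past the limma test adjusted or at an unadjusted p under 0.05, with a median difference of -0.33 and sums over the 4 of 4640 and 3547 in the synaptic and 5593 and 3928 in the non-synaptic region. Camp of this list was at the floor on all 4 arrays, and the part of these cells in the Mmp8 values was not tested.

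Mmp3, the stromelysin that is known to cut agrin at the synapse, read 314 and 176 in the synaptic region and 319 and 267 in the non-synaptic region, all above the floor of 159 and all below the filter. Mmp13, a collagenase, was at or below the floor on all 4 arrays. Outside the cluster, Mmp11 at a mean log2 intensity of 8.85 lay just under the filter, and Mmp19 was below it too. Intensities of different probe sets depend on their sequences, so that these readings say which transcripts could be compared and not which enzyme was more abundant.

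**Figure D3:**
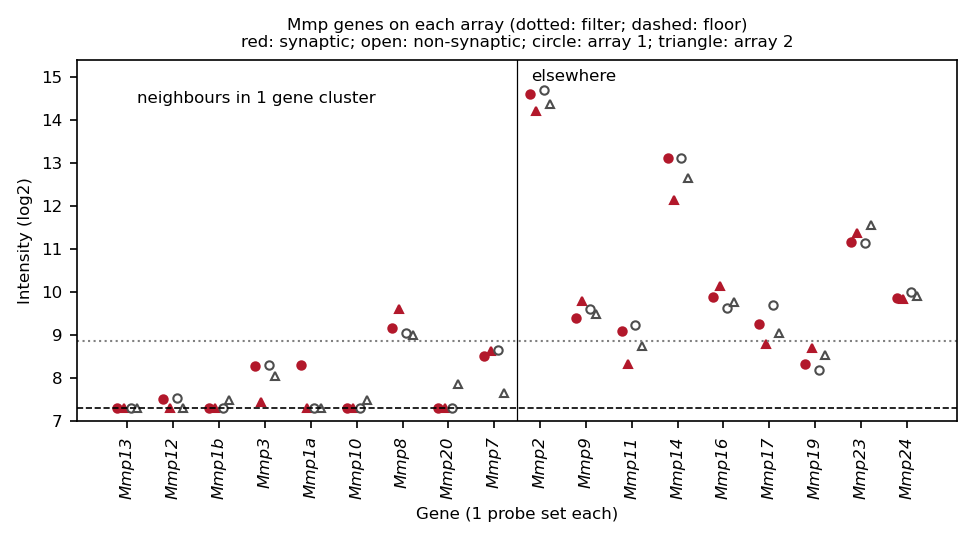
Log2 intensity on each array (vertical axis) of the 18 Mmp genes, 1 probe set each. Genes left of the vertical line are the 9 neighbours in 1 cluster, the dotted line is the filter at 8.87 and the dashed line the floor at 7.31, to which lower values were raised. In the cluster, Mmp8 is the gene above the filter.

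The letters before the start of these genes are shown because cluster genes and measured genes differ in the motifs found there. RefSeq promoters of assembly GRCm38.p6 were found for 41 of the 70 members, and the 250 bases before the start were searched on both strands for the AP-1 motif TGAGTCA, the TATA box TATAAA and the N-box CCGGAA, which share no letters in the matches shown. The first is the response element known from collagenase and stromelysin genes, and the last is the ETS-binding element known from acetylcholine receptor genes of the synapse. Capitals mark the matches in 2 cluster genes below the filter, Mmp3 at chr9:7445572-7445821 (+ strand) and Mmp13 at chr9:7272264-7272513 (+ strand), and in 2 measured genes, Mmp14 at chr14:54431348-54431597 (+ strand) and Timp3 at chr10:86300162-86300411 (+ strand).
Mmp3: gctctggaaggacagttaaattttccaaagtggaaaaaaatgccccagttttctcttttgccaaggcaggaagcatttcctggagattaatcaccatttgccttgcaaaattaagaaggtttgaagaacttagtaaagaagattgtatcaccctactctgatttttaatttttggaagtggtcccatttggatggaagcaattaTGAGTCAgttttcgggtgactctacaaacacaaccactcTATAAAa
Mmp13: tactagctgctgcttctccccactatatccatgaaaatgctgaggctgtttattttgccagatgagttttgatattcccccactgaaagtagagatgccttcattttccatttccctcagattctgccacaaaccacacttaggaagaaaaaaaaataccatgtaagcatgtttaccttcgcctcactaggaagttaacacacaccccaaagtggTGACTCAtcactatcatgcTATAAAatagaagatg
Mmp14: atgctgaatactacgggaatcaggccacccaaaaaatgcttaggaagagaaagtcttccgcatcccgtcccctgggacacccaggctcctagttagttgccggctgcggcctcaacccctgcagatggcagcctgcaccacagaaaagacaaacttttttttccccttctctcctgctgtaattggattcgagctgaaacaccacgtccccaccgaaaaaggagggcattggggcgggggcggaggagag
Timp3: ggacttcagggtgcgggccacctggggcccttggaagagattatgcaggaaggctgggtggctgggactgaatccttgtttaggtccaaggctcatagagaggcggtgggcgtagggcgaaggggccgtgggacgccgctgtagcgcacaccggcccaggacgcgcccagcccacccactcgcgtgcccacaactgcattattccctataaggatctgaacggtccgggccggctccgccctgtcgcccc

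Mmp3 and Mmp13 each hold 1 AP-1 motif and 1 TATA box, and Mmp14 and Timp3 hold none of the 3 motifs in these letters. Of the 9 Mmp genes below the filter with a promoter, 7 held the AP-1 motif and 6 held it together with a TATA box, namely Mmp10, Mmp13, Mmp1a, Mmp1b, Mmp3 and Mmp7. Of the 4 measured Mmp genes with a promoter, 0 held either. Over all 27025 genes with a promoter, 5.16% held the AP-1 motif, 14.3% the TATA box and 0.862% both. Of the 23 measured members with a promoter, 1 held the AP-1 motif (Adam19), 2 the TATA box (Adamts1 and Adamtsl2) and 0 both. GC content of the 250 bases had a median of 65.6% in the measured members, 41.6% in the 18 members below the filter and 52.8% over all genes. For a gene with several promoters, the one with the highest GC content was used, which raises these values. A motif counted for a gene when any of its promoters held it. These are matches of letters and no test of binding.

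The broadly expressed sheddases of the ADAM family were measured with overlapping regions. Adam10, which releases Notch and cadherins, read 9423 and 13173 in the synaptic region and 9356 and 12153 in the non-synaptic region. The arrays fell into the same low and high reading in each region, and the difference was 0.063 ± 0.25. Adam17, the converting enzyme of tumour necrosis factor, read 4142 and 6065 against 4222 and 5852, a difference of 0.012 ± 0.29. Adam9 read 9331 and 13669 against 10938 and 13824 and differed by -0.12 ± 0.26. For Adam15, an ADAM that carries an integrin-binding motif, the readings were 10001 and 8161 against 9369 and 7064, a difference of 0.15 ± 0.23. These readings are from 1 probe set each. The other measured probe sets of Adam15 gave 0.019 ± 0.23, -0.31 ± 0.48 and -1.02 ± 1.08. Those of Adam10 gave 0.060 ± 1.42 and -0.46 ± 0.95, and those of Adam17 gave -0.054 ± 0.24 and -0.15 ± 0.76.

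The N-box CCGGAA was found in the promoters of 2 of the 23 measured members, Adam15 and Adam17, and in 13.6% of all genes with a promoter. It stands in capitals, as its reverse complement, in the letters before Adam17 at chr12:21373633-21373882 (- strand), shown because this is the element known from synaptic genes while the region difference of Adam17 was 0.012.
Adam17: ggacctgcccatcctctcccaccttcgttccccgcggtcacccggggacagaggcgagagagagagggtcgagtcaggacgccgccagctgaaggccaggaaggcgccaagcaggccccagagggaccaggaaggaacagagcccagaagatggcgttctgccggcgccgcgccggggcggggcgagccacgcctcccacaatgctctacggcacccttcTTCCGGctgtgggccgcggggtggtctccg

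Adam12 and Adam19, the meltrins known from myoblast fusion and from the shedding of neuregulins, had the widest 95% intervals of the 39 genes. Adam12 read 686 and 1812 in the synaptic region and 1336 and 2531 in the non-synaptic region. Array 1 was the lower one in each region and the regions overlapped, and the difference was -0.72 ± 0.57 with an interval from -2.17 to 0.73. Leaving out each array moved it between -1.42 and -0.021, and its second probe set gave -0.53. Adam19, named after its values were seen, gave -0.39 and -0.37 on its 2 probe sets, and its synaptic arrays were 1.52 apart on the log2 scale. Neuregulin 1 itself (Nrg1) was at the floor on all 4 arrays.

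Read from 1 probe set per gene, the largest positive difference was that of Adam23, which belongs with Adam11 and Adam22 to the ADAM proteins without protease activity that act as neuronal adhesion receptors. Adam23 and Adam22 are known receptors of the secreted LGI proteins, and the pair of Lgi4 and Adam22 is known from myelination by Schwann cells. The probe set of Adam23 with the highest mean read 1086 and 1223 in the synaptic region and 664 and 654 in the non-synaptic region. Both synaptic arrays lay above both others, and the difference was 0.81 ± 0.27, with a 95% interval from 1.08-fold to 2.84-fold (limma unadjusted p = 0.0309, adjusted p = 0.9999). Its second measured probe set pointed the other way, with 523 and 421 in the synaptic region against 786 and 663 in the non-synaptic region, a difference of -0.62 ± 0.34. The regions were apart on both probe sets in opposite directions, and the third probe set was below the floor on all 4 arrays. Without each array in turn the first probe set gave from 0.72 to 0.89, at unadjusted limma p from 0.0716 to 0.134.

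The letters before Adam23 at chr1:63445641-63445890 (+ strand) hold none of the 3 motifs and are shown because this gene had the largest positive difference of the 39.
Adam23: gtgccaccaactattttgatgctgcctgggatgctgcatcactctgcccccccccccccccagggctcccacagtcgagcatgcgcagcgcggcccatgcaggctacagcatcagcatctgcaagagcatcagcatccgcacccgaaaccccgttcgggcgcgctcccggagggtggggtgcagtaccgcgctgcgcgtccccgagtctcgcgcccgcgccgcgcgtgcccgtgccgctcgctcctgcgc

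Adam11 read 1062 and 518 in the synaptic region against 512 and 507 in the non-synaptic region. Array 1 of the synaptic region stood well above the other 3 arrays, and the difference was 0.54 ± 0.45, or 0.025 without that array. Adam22, named after its values were seen, gave 0.17 ± 0.32 and -0.24 ± 0.36 on its 2 probe sets. Of the LGI ligands, Lgi4 read 978 and 1180 in the synaptic region and 557 and 820 in the non-synaptic region, and Lgi1 differed by 0.079 ± 0.26. Both synaptic arrays of Lgi4 lay above both others, and its difference of 0.67 ± 0.33 did not pass.

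Schwann cells, the glia of the motor nerve, were followed with a list of 14 markers. Of these 10 were measured, 1 passed limma at an adjusted p under 0.05 (Mbp), 8 had both synaptic arrays above both others, and their median difference was 1.08. Their intensities summed to 210163 and 213310 in the synaptic region and to 125543 and 135290 in the non-synaptic region. In these sums Cryab held 103100 and 95284 against 93434 and 101408, a difference of 0.026 ± 0.14. None of the Schwann cell markers was at the floor on all 4 arrays. All 7 measured fat cell markers of 11 had both synaptic arrays below both others, with a median difference of -2.57. Of these 1 passed limma at an adjusted p under 0.05 (Adipoq), and none was at the floor on all 4 arrays. Their sums were 129097 and 129702 against 178406 and 188752. Most of each sum was Fabp4, at 111722 and 106280 against 119239 and 118059, a difference of -0.12 ± 0.13. The part of these cells in the member values was not tested. Macrophage, fibroblast and endothelial markers, 10 measured of 10 in each list, had medians of -0.17, -0.12 and -0.19.

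The remaining ADAM genes are mostly known from the testis and fertilisation. Of them Adam4 was measured at 1577 and 1622 in the synaptic region against 2023 and 1644 in the non-synaptic region, with the synaptic arrays just below the others and a difference of -0.19 ± 0.24. Adam8, an ADAM of leukocytes, and Adam33 differed by 0.13 ± 0.38 and -0.032 ± 0.39, both named after their values were seen. The other 16 ADAM genes lay below the filter, namely Adam18, Adam1a, Adam1b, Adam2, Adam21, Adam24, Adam25, Adam26a, Adam28, Adam3, Adam32, Adam34, Adam5, Adam6a, Adam6b and Adam7. For 6 of the 16 every probe set was at the floor on all 4 arrays.

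**Figure D4:**
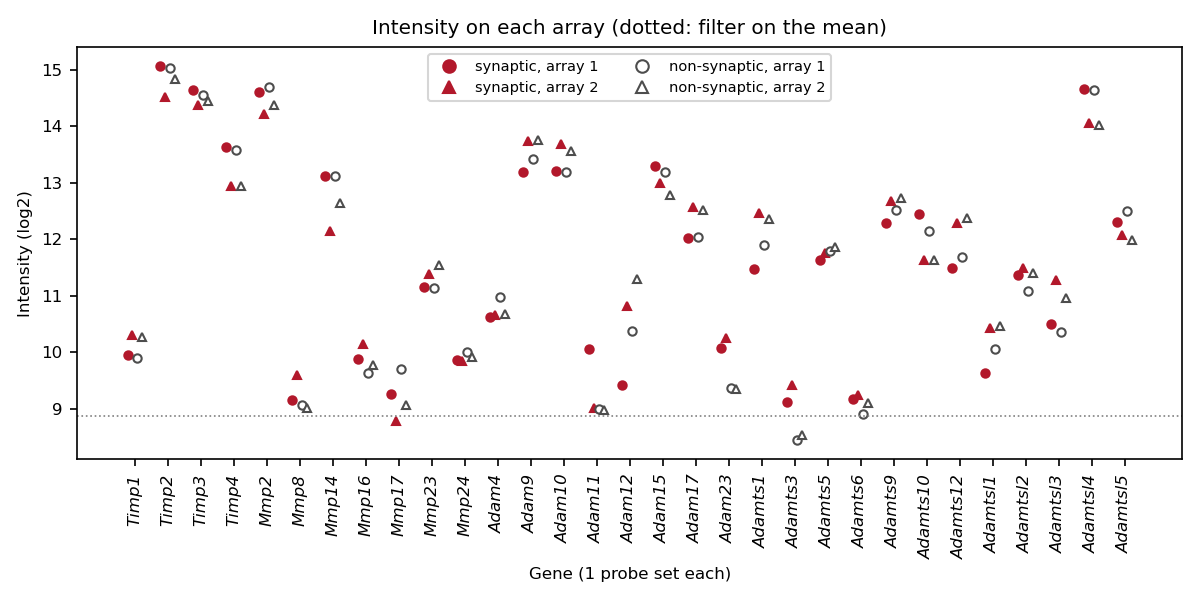
Log2 intensity (vertical axis) of the 31 genes chosen by the naming rule, 1 probe set each, on the 4 arrays. Filled red symbols are synaptic, open grey symbols non-synaptic, circles array 1 and triangles array 2. Both red symbols lie above both open ones for Adam11, Adam23, Adamts3, Adamts6, Mmp16 and Mmp8, and below both for Adam4, Adamts5 and Mmp24.

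Of the secreted ADAMTS enzymes 10 of 15 genes were measured, with a median difference of 0.018. Adamts3, which trims the amino end of procollagens, had the largest difference of this family. It read 558 and 687 in the synaptic region and 348 and 370 in the non-synaptic region, so that both synaptic arrays were higher. The difference was 0.79 ± 0.36 with an interval from -0.13 to 1.70 (limma unadjusted p = 0.0783, adjusted p = 0.9999). A higher floor, at the 40th percentile, gave a difference of 0.40. Its mean log2 intensity of 8.88 lay just above the filter, and it fell below the filter in 2 of the 4 fits that left out an array. The second probe set of Adamts3 lay below the filter, at 338 and 413 in the synaptic region and 232 and 365 in the non-synaptic region.

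The proteoglycanases Adamts1, Adamts5 and Adamts9, which cut aggrecan and versican, were measured without a difference past the test. Adamts1 read 2827 and 5670 in the synaptic region against 3827 and 5234 in the non-synaptic region, an overlap, at -0.16 ± 0.39. Adamts5 read 3166 and 3459 against 3526 and 3723. Its synaptic arrays were the lower ones, by 0.13 on average (-0.13 ± 0.20), and its other 2 measured probe sets gave 0.016 and -0.049. For Adamts9 the readings were 5029 and 6532 against 5870 and 6820, with overlap and a difference of -0.14 ± 0.22.

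Adamts10 and Adamts6, related enzymes known from fibrillin microfibrils, differed by 0.15 ± 0.35 and 0.20 ± 0.33. Adamts10 read 5569 and 3173 in the synaptic region and 4536 and 3174 in the non-synaptic region, while Adamts6 read 578 and 605 against 481 and 548, the synaptic arrays being higher. Adamts12, which cuts cartilage oligomeric matrix protein, read 2873 and 4989 against 3286 and 5297 and differed by -0.14 ± 0.38. The other 3 measured genes, Adamts8, Adamts15 and Adamts16, differed by 0.17, -0.10 and 0.14. The 5 genes below the filter were Adamts18, Adamts19, Adamts20, Adamts4 and Adamts7. Of these, Adamts20 had its synaptic arrays above the others, at 418 and 797 against 266 and 352. Adamts7 had them below, at 282 and 199 against 387 and 513. So did Adamts19, at 69 and 92, under the floor, against 248 and 233. The main fit tested none of these genes.

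All 5 Adamtsl genes were measured, and none had its regions apart, as 19.9% of all probe sets tested had in either direction. So few genes cannot show whether the family departs from that share. Adamtsl4, which binds fibrillin, read 25753 and 17087 in the synaptic region and 25397 and 16709 in the non-synaptic region. Array 1 was the higher one in each region by a like amount, and the difference was 0.026 ± 0.30. Adamtsl2, another fibrillin-binding member, read 2646 and 2864 against 2181 and 2706 and differed by 0.18 ± 0.23. Adamtsl5 read 5083 and 4292 against 5766 and 4084, at -0.055 ± 0.25.

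For Adamtsl3 the readings were 1452 and 2492 in the synaptic region and 1320 and 1994 in the non-synaptic region, a difference of 0.23 ± 0.38. Adamtsl1 read 799 and 1382 against 1066 and 1413 and differed by -0.22 ± 0.37. Array 2 was the higher one in each region for these 2 genes.

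Probe sets of the same gene often differed in sign. Of the 20 genes with more than 1 measured probe set, 12 had differences of both signs, and the median distance between the lowest and highest difference was 0.27. The median SE of the 71 member probe sets was 0.34, larger than that distance. Whether signs differ more often here than in other genes was not tested. The distance was 1.43 for Adam23, 1.18 for Adam15 and 1.12 for Mmp24. For Timp2 all 5 measured probe sets were negative, from -0.80 to -0.099, and for Mmp16 both gave 0.32. The widest spread between arrays belonged to a probe set of Adam10 that lay just above the filter. It read 130 and 1442 in the synaptic region and 136 and 1327 in the non-synaptic region, so that its arrays were 3.18 and 3.06 apart on the log2 scale within regions while the regions differed by 0.060 ± 1.42.

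**Figure D5:**
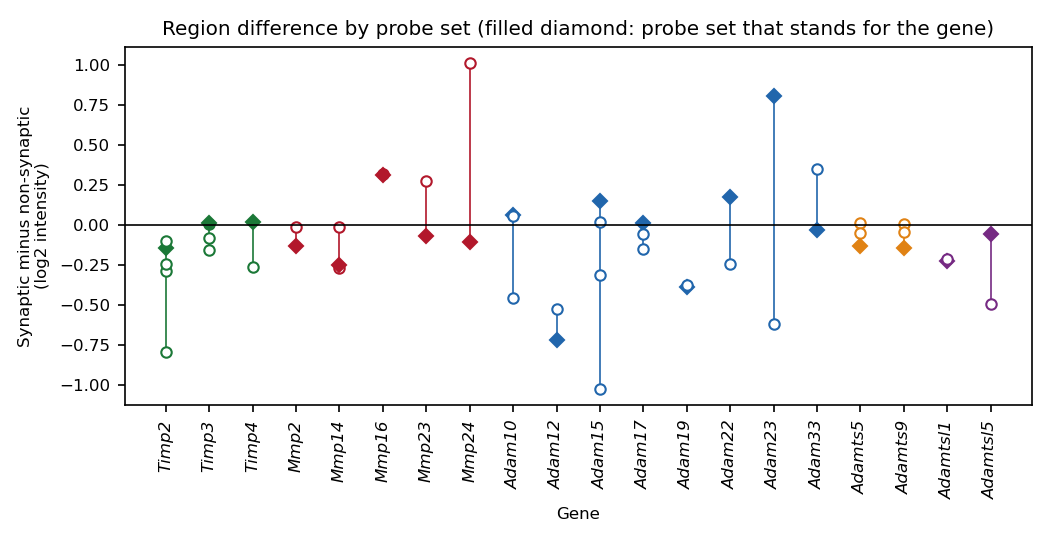
Region difference (vertical axis, log2 intensity, synaptic minus non-synaptic) of each measured probe set for the 20 genes with more than 1, coloured by family. Filled diamonds are the probe sets read for the gene, open circles the others, and lines join the probe sets of a gene. In 12 of the genes they lie on both sides of 0.

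Other genes of extracellular proteolysis were read from the same fit, and in each of 4 lists 0 genes passed limma at an adjusted p under 0.05, with 1 gene over the 4 lists at an unadjusted p under 0.05. Of all probe sets tested, 0.0113% passed when adjusted and 0.986% at the unadjusted p. Among other inhibitors 9 of 16 were measured with a median difference of 0.054. The membrane-anchored inhibitor Reck differed by -0.017 ± 0.46, and Spock3, a testican, had the largest size in this list, with 685 and 429 in the synaptic region, both below 1262 and 901 in the non-synaptic region (-0.98 ± 0.38). The secreted inhibitor of cathepsins Cst3 differed by 0.11 ± 0.16.

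Of activators and partners 16 of 20 were measured with a median of -0.051, among them Plaur, the urokinase receptor, at 0.31 ± 0.30, the Mmp inducer Bsg at 0.019 ± 0.18 and the Adam17 partner Rhbdf2 at 0.27 ± 0.30. Of other matrix proteases 12 of 17 were measured with a median of 0.047. The serine protease Htra1 read 11819 and 14406 in the synaptic region and 10228 and 10484 in the non-synaptic region, the synaptic arrays being higher by 0.33 ± 0.19, which did not pass. Of known substrates and binding partners 24 of 30 were measured with a median of 0.025. The regions did not overlap for 6 of these genes on the higher side and for 0 on the lower side. Among all probe sets tested, 9.89% were apart on the higher and 9.98% on the lower side. Whether 6 of 24 genes exceeds that share was not tested. Cdh5 and Ngfr, which are among the 6, also stand in the endothelial and Schwann cell marker lists. Hbegf, a growth factor released by ADAM enzymes, was the gene of these lists at an unadjusted p under 0.05. It read 4935 and 4443 in the synaptic region against 3299 and 3195 in the non-synaptic region, a difference of 0.53 ± 0.20 (limma unadjusted p = 0.0415, adjusted p = 0.9999).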

How the data were processed

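RNA of the synaptic and non-synaptic regions was measured on 4 one-colour arrays. The authors deposited linear intensities, with 1 value for each probe set. These had been scaled, since the 2% trimmed mean was 2500.0 on every array. The scanner and the summary method are given in none of the sources used here. Such a scaling hides a change shared by most transcripts.

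A floor of 159, the 20th percentile over all arrays, replaced lower intensities before log2 was taken. The 64 control probe sets and those with a mean log2 intensity below 8.87, the 40th percentile, were left out. A fit over the remaining 26480 probe sets with limma 3.58.1 in R 4.3.3 (lmFit, eBayes with an intensity trend, 2-sided) left 2 residual and 3.16 prior degrees of freedom, and p-values were adjusted by Benjamini-Hochberg over all of them. The threshold was 0.05. Symbols of the platform annotation, which can be old, gave 34958 probe sets with 1 gene, 932 with several and 9211 with none. RefSeq tables matched 34754 of the first. A gene was read from its probe set with the highest mean. With 2 arrays per region no exact permutation test can reach the threshold, and precision is limited by so few arrays. The scheme was checked on simulated data with noise drawn independently for each array, which cannot show how it behaves with shifts shared between arrays.

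Named with each array's value were all Timp genes, in each other family up to 4 genes with the highest mean and up to 4 with the smallest unadjusted p, members past the threshold or apart by 2-fold, and, of each list of other genes, up to 3 by smallest p and up to 2 by highest mean, from which the text gives a part. The members, the lists and the marker genes were chosen with earlier results of these data known. Marker lists of mast cells, smooth muscle, tendon and mesothelium had medians of 0.065, -0.16, 0.19 and -0.058.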

Additional observations from a re-analysis of the deposited data

How the results depend on the processing

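Under every alternative 0 member probe sets and 0 of the other proteolysis genes passed at an adjusted limma p under 0.05. Quantile normalization and centring each array on its median left 2 member probe sets apart on the lower side in place of 4. These were 2.86% and 2.82% of the members, against 9.56% and 9.15% of the table. Centring also gave 5 probe sets of the whole table higher past the adjusted threshold in place of 1. Without a filter, 2 of 124 members were higher and 1 lower at an unadjusted p under 0.05 (2.42% in all, against 3.34% of the table), 7 were apart on the lower side (5.65%, against 9.37%), and 0 probe sets of the table passed the adjusted threshold in either direction. With the filter at the 60th percentile, which tests fewer probe sets, 0 members had an unadjusted limma p under 0.05, against 0.73% of the table. Of the members 0 were apart on the higher side, against 8.43% of the table, and 2 on the lower side (4.44%, against 8.67%). Under this filter 3 probe sets of the whole table were higher past the adjusted threshold. A floor at the 40th percentile left 1 of the table lower. Without an intensity trend 2 members were higher at an unadjusted p under 0.05 (2.82%, against 1.02% of the table), and 0 of the table passed the adjusted threshold either way. Leaving out each array gave from 0 to 1 members higher and from 0 to 7 lower at an unadjusted p, from 16 to 29 apart on the higher and from 15 to 34 on the lower side (24.9% to 32.8% and 25.8% to 37.4% of the table, with a lone array in a region), and from 0 to 6 of the table higher and from 0 to 5 lower. The 7 lower ones, from Adam10, Adam12, Adam15, Adam19, Adamtsl5 and Timp2, arose without array 2 of the synaptic region, where they were 9.86% of the members against 4.35% of the table lower at that p (0.332% with all arrays). The cause was not tested. A lone array in a region was assumed to vary like the other region.

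The titles' numbers were not taken as pairs, since nothing says what they mean. Deviations from the region means correlated at 0.63 between arrays of the same number over the probe sets past the filter and at 0.44 over all. Over all probe sets tested, median gaps were 0.20 and 0.16 between arrays of the same number, against 0.35 and 0.30 within regions. The main fit counts shifts shared by arrays of one number as spread, which can widen its SEs and intervals. At an unadjusted limma p under 0.05 it held 0.986% of the table. With the replicate number as a block, 1 member (Adam23) was higher and 3 were lower at an unadjusted p under 0.05 (probe sets of Timp2, Adam12 and Adam15), 5.63% of the members against 6.27% of the table, 0 members passed when adjusted, and 56 probe sets of the table were higher and 18 lower. Array 2 lay on the same side of array 1 in both regions for 83.1% of the member probe sets and 72.3% of all.

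Of the 31 named members, 12 kept the sign of their difference in every setting where they were measured and 19 changed it in some setting, all in a fit without 1 array, with quantile normalization (Timp3) or with the mean of all probe sets of the gene. Low signal limits the 31 genes below the filter.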

Other observations

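In the gene order of assembly GRCm38.p6, 3 of the 4 Timp genes lie within synapsin genes, which encode proteins of synaptic vesicles: Timp1 within Syn1, Timp3 within Syn3 and Timp4 within Syn2. The host genes were looked up after the members' values were seen. Syn2 read 1517 and 1550 in the synaptic region against 1246 and 1297, both synaptic arrays being higher, at a log2 difference of 0.27 ± 0.23 (SE) that did not pass, while Timp4 within it differed by 0.023. Syn1 read 1013 and 717 against 540 and 838, which overlapped, at 0.34 ± 0.38. Syn3 lay below the filter, with 186 and 775 against 654 and 458.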
